A study of Mus musculus with 18 samples.

Results

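Trp53, which encodes the transcription factor p53, was followed across mouse hearts together with Cdkn1a, which encodes the cyclin-dependent kinase inhibitor p21, and with 8 further genes of its circuit. The 10 genes were taken by name from a table of 34714 genes, and all 10 were present in it: Trp53, Cdkn1a, Mdm2, Mdm4, Phlda3, Ccng1, Sesn1, Sesn2, Zmat3 and Perp. The study asked what loss of Kcp does in hearts under pressure overload, and its title names p53, p21 and cyclin B1. The product of Kcp, kielin/chordin-like protein, is secreted and modulates BMP signalling. Hearts of C57 mice were sequenced in 4 groups. KO TAC hearts (5 libraries) carried the KCP knockout and had transverse aortic constriction, in which a narrowed aorta makes the heart pump against a higher pressure. KO sham hearts (4 libraries) carried the knockout and had the sham operation. WT TAC hearts (5 libraries) and WT sham hearts (4 libraries) were wild type with the same operations. The labels do not give the time after surgery, the animals' age or sex, the part of the heart taken, how the knockout was made, or whether each library is a separate mouse, so p-values measure the spread between these libraries.

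p53 is a transcription factor that is held at a low level by the MDM2 ubiquitin ligase and is stabilised by stress signals such as DNA damage. Once stabilised it raises transcription of genes for cell-cycle arrest, repair, metabolism and cell death, and MDM2 is itself a target, which closes a feedback loop. Much of this control acts on the p53 protein, which RNA levels do not report. In the adult heart, p21 and the exit of cardiomyocytes from the cell cycle have been studied together, and cell loss under pressure overload is one setting in which p53 is examined.

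All values below are FPKM (fragments scaled by transcript length and library total), a unit inferred from the table, and the depth behind them is unknown. Changes and their standard errors are differences of log2(FPKM + 1) from one limma fit over 11937 genes, and a gene is called where its Benjamini-Hochberg adjusted p over all of them is under 0.05. Because 1 is added before the logarithm, the change of a low gene is understated. The fit used 17 libraries. KO sham replicate 2 was not fitted, since the name of its library combines the names given to replicates 3 and 4. Over the tested genes its root mean square difference from their mean was 0.158 on the log2 scale. It was 0.171 from the mean of replicates 1 and 3, 0.167 from that of 1 and 4, and 0.198 to 0.211 from single libraries. A mean of 2 libraries varies less than a single library, so these distances do not show whether the library was pooled. The library name of KO TAC replicate 4 also joins a pair of names, and that library was kept. WT TAC replicate 5 and KO TAC replicate 2 are called the libraries that stand apart. Each had the lowest summed FPKM of 6 wall stress genes in its group (3931 and 8748 FPKM), nearest to sham by that sum. Other sums did not all go this way: for macrophage markers KO TAC replicate 2 was the highest of its group (158.4 FPKM). A distance to sham over all genes is not given here. WT TAC replicate 5 also shares with all KO libraries a low level of Ndufb4c (4.47 to 11.2 FPKM, against 35.9 to 49.4 FPKM in the other 8 WT libraries), so genotype and this set of libraries can hardly be told apart. Kcp itself was at 0.762 ± 0.197 FPKM in KO TAC (SD, n = 5), 0.665 ± 0.00891 FPKM in KO sham (n = 3), 1.12 ± 0.204 FPKM in WT TAC (n = 5) and 1.03 ± 0.279 FPKM in WT sham (n = 4). It was thus lower in the libraries labelled KO but not absent from them, with no overlap between genotypes in either operation (exact permutation test, 2-sided, p = 0.00794 after TAC and p = 0.0571 in sham, each the smallest p possible). In the limma fit Kcp was called in neither comparison. Its difference was -0.27 ± 0.10 after TAC (limma adjusted p = 0.0843) and -0.28 ± 0.12 in sham (limma adjusted p = 0.301). A separation in that direction was shown by 2.87% of all tested genes after TAC and 8.15% in sham. Cardiomyocyte markers were high in every library, with Myh6 between 3801 and 6087 FPKM, and the skeletal muscle myosin Myh4 was at 0 in all 18.

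**Figure D1:**
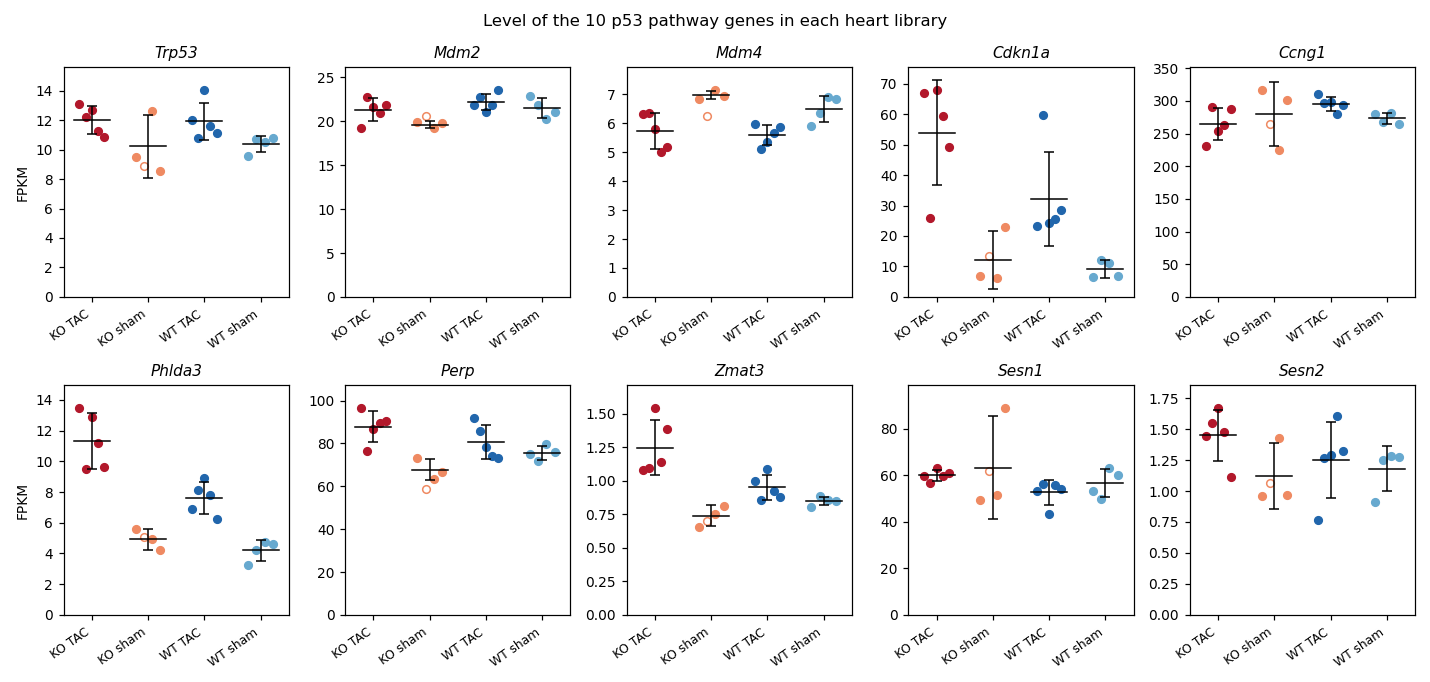
FPKM of the 10 genes in each library (1 panel per gene, y axes linear from 0), with KO TAC, KO sham, WT TAC and WT sham from left to right. Points are libraries, horizontal bars with whiskers are the mean and SD over the libraries in the fit, and the open point is KO sham replicate 2, outside the fit. In the panels of Cdkn1a and Phlda3 the TAC libraries lie above the sham libraries of the same genotype, while Ccng1, Sesn1 and Mdm2 stay in one range.

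Cdkn1a, the p21 gene, had the widest range of the 10, from 6.24 to 67.8 FPKM over the 17 libraries. It lies on mouse chromosome 17 (29090979 to 29100722, GRCm38, plus strand), and RefSeq gives it a pair of transcription starts 2790 bases apart. The window of 250 bases before the upstream start (chr17:29090729-29090978, plus strand, GRCm38.p6, RefSeq) is shown because it was the single window of these genes in which a pair of p53 half-sites was found, with the half-sites in capitals. Half-sites are 10-base matches to the p53 consensus, which reads the same on both strands, and a pair means 2 of them with a spacer of at most 13 bases.
Cdkn1a, before the upstream start: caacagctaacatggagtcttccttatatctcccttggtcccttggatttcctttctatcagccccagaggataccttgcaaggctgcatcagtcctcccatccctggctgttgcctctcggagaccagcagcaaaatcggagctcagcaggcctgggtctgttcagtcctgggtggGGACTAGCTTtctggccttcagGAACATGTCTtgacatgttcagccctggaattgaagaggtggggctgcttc
The pair spans 32 bases (chr17:29090906-29090937) with a spacer of 12, and its half-sites begin 73 and 51 bases before the upstream start. Only full matches were marked. The 10 bases directly after the second half-site, tgacatgttc, depart from the consensus in their first letter alone, so another pairing without a spacer was not counted. The pair as marked need not be the one that p53 binds. The marked pair lies 2863 bases before the downstream start, whose own window held no half-site. Among all 32851 RefSeq windows of 300 bases (250 before to 50 after a start), 2745 held a half-site (8.36%) and 24 held a pair (0.0731%). Entries were found for 8 of the 10 genes, with 11 windows, of which 5 held a half-site and 1 held the pair.

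Single half-sites were found in windows of Trp53, Mdm2, Ccng1 and Sesn1, and are shown with 10 bases on either side, 5′ to 3′ on the strand of the gene, half-site in capitals, so that they can be set beside the pair of Cdkn1a.
Trp53 (chr11:69580274-69580303, plus strand): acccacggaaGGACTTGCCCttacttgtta
Mdm2 (chr10:117710925-117710954, minus strand): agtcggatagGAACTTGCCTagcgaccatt
Ccng1 (chr11:40755452-40755481, minus strand): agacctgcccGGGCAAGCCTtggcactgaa
Sesn1 (chr10:41887256-41887285, plus strand): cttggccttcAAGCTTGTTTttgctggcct
They begin between 75 (Trp53) and 186 (Mdm2) bases before the annotated start. No half-site was found in the windows of Mdm4, Phlda3 and Sesn2, which says only that these letters are not in those windows. Zmat3 and Perp were not matched to a window. A match is a description of letters, and the genes that changed most included one with a pair (Cdkn1a) and one with no half-site in its window (Phlda3).

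Cdkn1a rose after TAC in both genotypes, and no library of a TAC group fell into the range of its sham group. In KO TAC it was at 66.8, 26.1, 67.8, 59.3 and 49.2 FPKM, against 6.83, 6.24 and 23.0 FPKM in KO sham replicates 1, 3 and 4 (replicate 2, outside the fit, had 13.5 FPKM). In WT TAC it was at 23.3, 59.7, 24.2, 25.5 and 28.5 FPKM, against 6.65, 12.2, 11.0 and 6.87 FPKM in WT sham. A single library stood away in 3 of the groups: KO TAC replicate 2 was low, and KO sham replicate 4 and WT TAC replicate 2 were high. The means were 53.8 ± 17.2 FPKM in KO TAC and 12.0 ± 9.54 FPKM in KO sham (SD, n = 5 and 3), a log2 change of 2.23 ± 0.42 (limma, Benjamini-Hochberg adjusted p = 0.000718). In WT the means were 32.2 ± 15.5 FPKM after TAC and 9.17 ± 2.83 FPKM in sham (n = 5 and 4), a log2 change of 1.65 ± 0.39 (limma adjusted p = 0.00719). Both calls held in every fit that left out 1 library, with log2 changes from 1.92 to 2.79 in KO and from 1.41 to 1.79 in WT. Exons of Cdkn1a overlap those of AC167363.2, a gene model of uncertain status on the opposite strand, over 273 bases (7.68% of its exon bases), and the sources used here do not say whether counting used strand.

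Between genotypes, Cdkn1a was not called. After TAC, 2 of the 5 KO libraries lay above every WT library and the other 3 lay inside the WT range, which reaches 59.7 FPKM through replicate 2. The log2 difference of KO TAC against WT TAC was 0.74 ± 0.36 (limma adjusted p = 0.21), and it was 0.98 both without WT TAC replicate 2 and without KO TAC replicate 2, with limma adjusted p = 0.101 and 0.08. In sham the difference was 0.17 ± 0.44, and it was -0.39 without KO sham replicate 4, so its sign rested on that library. The difference between the TAC responses of the genotypes was 0.58 ± 0.57 (limma adjusted p = 0.627), which covers no difference as well as a larger response in KO.

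Trp53 (chromosome 11, 69580348 to 69591873) varied little. It was at 13.1, 12.2, 12.7, 11.2 and 10.9 FPKM in KO TAC, against 9.52, 12.6 and 8.53 FPKM in KO sham. In WT TAC it was at 12.0, 10.8, 14.0, 11.6 and 11.1 FPKM, against 9.53, 10.7, 10.5 and 10.7 FPKM in WT sham. All 5 WT TAC libraries lay above all 4 WT sham libraries, some of them by a small margin, while in KO the sham replicate at 12.6 FPKM lay among the TAC libraries. The log2 change was 0.23 ± 0.10 in KO (limma adjusted p = 0.0796) and 0.18 ± 0.09 in WT (limma adjusted p = 0.174), and neither passed. In KO the side of the threshold depended on KO sham: Trp53 was called without replicate 3 (0.38, limma adjusted p = 0.00501) and with replicate 2 put back (0.27, limma adjusted p = 0.0232). After TAC the genotypes differed by 0.01 ± 0.09, with means of 12.0 ± 0.955 FPKM in KO TAC and 11.9 ± 1.26 FPKM in WT TAC (n = 5 each). The p53 relatives Trp63 and Trp73 were under the filter on low values, with no library above 1.02 FPKM for Trp63 or above 0.0198 FPKM for Trp73.

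Mdm2 and Mdm4 encode the main restraints on p53: MDM2 is the ubiquitin ligase that marks it for destruction, and MDM4 is a related protein that binds and inhibits it. Mdm2, also a p53 target, was at 21.3 ± 1.31 FPKM in KO TAC, 19.6 ± 0.362 FPKM in KO sham, 22.2 ± 0.960 FPKM in WT TAC and 21.5 ± 1.12 FPKM in WT sham. Its highest library was 1.22 times its lowest, the narrowest range of the 10 genes, and it was called in no comparison. Its largest TAC change was 0.11 ± 0.06 in KO (limma adjusted p = 0.14). In sham the 3 KO libraries in the fit, at 19.2 to 19.9 FPKM, lay below the 4 WT libraries at 20.2 to 22.9 FPKM (log2 difference -0.13 ± 0.06, limma adjusted p = 0.357), a separation that 8.15% of all tested genes showed in that direction. KO sham replicate 2, outside the fit, was at 20.5 FPKM, inside the WT range.

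Mdm4 fell after TAC in KO. It was at 6.31, 6.34, 5.79, 5.01 and 5.19 FPKM in KO TAC, against 6.85, 7.13 and 6.92 FPKM in KO sham. The libraries in the fit did not overlap, but KO sham replicate 2, outside the fit, was at 6.26 FPKM, below KO TAC replicates 1 and 2. The log2 change was -0.25 ± 0.08 (limma adjusted p = 0.0147), and the call was lost without KO sham replicate 3 (-0.23, limma adjusted p = 0.0551). In WT, 4 of 5 TAC libraries lay below all sham libraries, with 5.97, 5.11, 5.36, 5.65 and 5.88 FPKM in TAC against 5.90, 6.34, 6.88 and 6.82 FPKM in sham. That change, -0.18 ± 0.07, was not called (limma adjusted p = 0.0669), and the genotypes' responses differed by -0.06 ± 0.10 (limma adjusted p = 0.774). Of 8 other genes that restrain p53, all tested, 0 were called in any of the 5 comparisons of the limma fit. After TAC 38.8% of all tested genes were called in KO and 21.9% in WT. The shares were 11.3% for KO TAC against WT TAC, 1.26% in sham and 0.93% for the difference between the responses. The ubiquitin ligase gene Trim24 came nearest in both TAC comparisons, with 0.30 ± 0.12 in KO (limma adjusted p = 0.0668) and 0.31 ± 0.11 in WT (limma adjusted p = 0.058).

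Phlda3 was the one gene of the 10 called in both TAC comparisons and between genotypes. It encodes a small pleckstrin-homology protein that is known to compete with AKT for membrane lipids and so to restrain AKT, and lies on chromosome 1 (135766085 to 135769134). It was at 13.5, 9.53, 12.9, 11.2 and 9.64 FPKM in KO TAC, against 5.57, 4.96 and 4.22 FPKM in KO sham. In WT TAC it was at 6.92, 8.10, 8.90, 7.82 and 6.24 FPKM, against 3.26, 4.24, 4.76 and 4.59 FPKM in WT sham. The 4 groups formed 3 levels: KO TAC lay above WT TAC in every library, WT TAC lay above all sham libraries, and KO sham overlapped WT sham. The log2 change after TAC was 1.05 ± 0.13 in KO (limma adjusted p = 6.16e-06) and 0.72 ± 0.12 in WT (limma adjusted p = 0.000361). KO TAC against WT TAC gave 0.52 ± 0.11 (limma adjusted p = 0.00751), with means of 11.3 ± 1.81 FPKM and 7.60 ± 1.04 FPKM (SD, n = 5 each). It stayed called without any 1 library, with values from 0.46 to 0.57, and with a term for the library set, where it was 0.76 ± 0.18 (limma adjusted p = 0.0423). That fit rests on the 1 WT library of the KO set, WT TAC replicate 5, which at 6.24 FPKM was the lowest of its group. In sham the genotypes differed by 0.19 ± 0.13 (limma adjusted p = 0.576), and the difference between the TAC responses was 0.33 ± 0.17 (limma adjusted p = 0.313), so a larger TAC response in KO was not shown for Phlda3.

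Perp and Zmat3 rose after TAC in KO. Perp encodes a membrane protein of desmosomes that is a p53 target in cell death and carries the RefSeq synonym KCP1, though Kcp is another gene. Perp was at 96.4, 76.2, 86.6, 89.8 and 90.5 FPKM in KO TAC, against 73.2, 63.4 and 66.7 FPKM in KO sham. In WT TAC it was at 91.7, 86.0, 78.3, 74.3 and 73.4 FPKM, against 75.1, 71.9, 79.6 and 76.1 FPKM in WT sham. The KO groups did not overlap and the WT groups did. Its log2 change was 0.37 ± 0.08 in KO (limma adjusted p = 0.00132) and 0.09 ± 0.07 in WT (limma adjusted p = 0.417), and the difference between these responses was 0.28 ± 0.11 (unadjusted p = 0.0185, limma adjusted p = 0.171).

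Zmat3, which encodes an RNA-binding zinc finger protein, showed the same layout at a far lower level. It was at 1.08, 1.10, 1.54, 1.14 and 1.39 FPKM in KO TAC, against 0.659, 0.751 and 0.815 FPKM in KO sham. In WT TAC it was at 0.999, 0.860, 1.09, 0.925 and 0.883 FPKM, against 0.808, 0.885, 0.860 and 0.852 FPKM in WT sham. All KO TAC libraries exceeded all KO sham libraries, while 2 of the 5 WT TAC libraries lay inside the WT sham range. Zmat3 reached 1 FPKM in 6 of 17 libraries, 0 of them sham: all the KO TAC libraries and WT TAC replicate 3. It thus met the filter on low values only through KO TAC. Such a filter favours a difference of KO TAC from KO sham and from WT TAC, and one between the responses. The log2 change of Zmat3 was 0.36 ± 0.08 in KO (limma adjusted p = 0.0023) and 0.07 ± 0.08 in WT (limma adjusted p = 0.53), with 0.29 ± 0.11 between them (unadjusted p = 0.0211, limma adjusted p = 0.182). After TAC, 4 of 5 KO libraries lay above every WT library (0.20 ± 0.07, limma adjusted p = 0.0839).

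Ccng1, Sesn1 and Sesn2 were called in no comparison. Ccng1 encodes cyclin G1, which recruits a phosphatase to MDM2, and was the most abundant of the 10 genes per length of transcript, with a mean of 279 FPKM over the 17 libraries. Its group means were 265 ± 24.7 FPKM in KO TAC, 280 ± 49.2 FPKM in KO sham, 295 ± 11.1 FPKM in WT TAC and 273 ± 8.32 FPKM in WT sham. KO sham was the widest group, at 316, 224 and 301 FPKM, and without the library at 224 FPKM (replicate 3) Ccng1 would be called lower after TAC in KO (-0.22, limma adjusted p = 0.0324, against -0.07 ± 0.09 with it).

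The sestrins encoded by Sesn1 and Sesn2 are stress proteins that restrain the growth kinase complex mTORC1. Sesn1 was at 59.5, 56.8, 63.3, 59.5 and 60.8 FPKM in KO TAC, against 53.2, 56.1, 43.5, 55.9 and 54.0 FPKM in WT TAC. Although no library overlapped, the log2 difference of 0.19 ± 0.12 was not called (limma adjusted p = 0.345); 3.83% of tested genes separated the same way. In KO sham Sesn1 was at 49.4, 51.3 and 88.7 FPKM, and the third of these, replicate 4, was also the high library for Cdkn1a. Without it the TAC change in KO was 0.25 (limma adjusted p = 0.0547), against -0.02 ± 0.14 with it. Sesn2 was low, at 1.45 ± 0.207 FPKM in KO TAC, 1.12 ± 0.268 FPKM in KO sham, 1.25 ± 0.305 FPKM in WT TAC and 1.18 ± 0.182 FPKM in WT sham, and reached 1 FPKM in 13 of 17 libraries. Its largest change was 0.21 ± 0.12 after TAC in KO (limma adjusted p = 0.172).

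Over the 10 genes, all of which met the filter, 4 rose and 1 fell after TAC in KO, where 38.8% of all tested genes were called, 21.1% higher and 17.7% lower. Zmat3, among the 4, met the filter only through KO TAC libraries. In WT after TAC 2 rose and 0 fell, where 21.9% were called, 10.7% higher and 11.2% lower. In KO TAC against WT TAC 1 was higher and 0 lower, where 11.3% were called, 6.53% higher and 4.78% lower. In KO sham against WT sham 0 of the 10 were called, where 1.26% of all tested genes were (0.645% higher and 0.62% lower). For the difference between the TAC responses 0 of the 10 were called, where 0.93% were (0.377% higher and 0.553% lower) (limma, Benjamini-Hochberg). At unadjusted p under 0.05 these last comparisons held 0 of the 10 in sham, against 1694 of 11937 tested genes, and 2 (Perp, and Zmat3 with the same limit of the filter) for the responses, against 2245 of 11937. The median log2 change of the 10 genes was 0.22 after TAC in KO and 0.08 in WT, against 0.014 and -0.008 over all tested genes. Read against these shares, the counts are too close to the background to be taken as particular to the 10 genes. By the separation of the fitted libraries alone, 4 of the 10 lay higher and 1 lower with no overlap after TAC in KO (19.8% and 16% of all tested genes), and 3 lay higher and 0 lower after TAC in WT (10.5% and 11.1%). Phlda3 and Sesn1 lay higher and 0 genes lower in KO TAC than in WT TAC (3.83% and 2.87%), and 0 lay higher and Mdm2 lower in KO sham than in WT sham (7.27% and 8.15%).

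**Figure D2:**
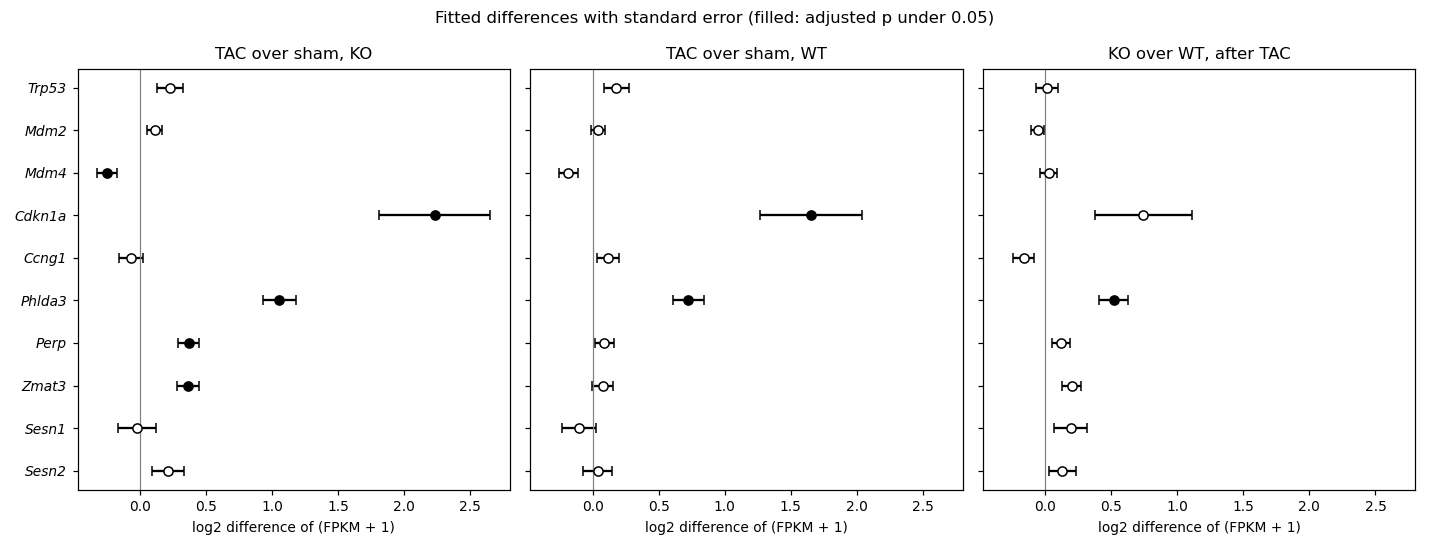
Log2 change of the 10 genes with its standard error (x axis, difference of log2(FPKM + 1); genes down the page), from left to right for TAC over sham in KO, TAC over sham in WT, and KO over WT after TAC. Filled points are called by limma at an adjusted p under 0.05. Cdkn1a and Phlda3 are filled in both genotypes after TAC, and Phlda3 is the filled gene in the panel of KO over WT after TAC.

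The other p53 targets give the setting for these values. A list of 43 further targets had 42 genes in the table and 35 that met the filter. After TAC in KO 12 rose and 5 fell, with a median log2 change of 0.14, where 21.1% of all tested genes rose and 17.7% fell. In WT 5 rose and 4 fell, with a median of 0.07, where 10.7% rose and 11.2% fell. Trp53i11, Aen and Bax rose in both genotypes, 3 of the 12 in KO and 3 of the 5 in WT. These counts moved with single libraries. The 17 calls in KO became 10 without KO sham replicate 1 and 9 without KO sham replicate 3, and the 9 in WT became 5 without WT TAC replicate 4, WT sham replicate 1 or WT sham replicate 4.

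Among targets that act in cell death, 11 were tested, of which 5 rose and 2 fell in KO while 3 rose and 1 fell in WT. Bax, whose product permeabilises mitochondria, was at 19.8 ± 0.833 FPKM in KO TAC and 16.4 ± 0.912 FPKM in KO sham (log2 change 0.25 ± 0.09, limma adjusted p = 0.0385), and at 19.1 ± 2.05 FPKM in WT TAC and 15.8 ± 2.25 FPKM in WT sham (0.26 ± 0.09, limma adjusted p = 0.0383). Apaf1, the scaffold of the apoptosome, and the death receptor gene Tnfrsf10b rose in KO (0.33 ± 0.08 and 0.60 ± 0.17). Tnfrsf10b was at 1.92 FPKM in KO TAC, 0.896 FPKM in KO sham, 1.83 FPKM in WT TAC and 1.53 FPKM in WT sham. KO sham was thus its lowest group. Siva1, a pro-apoptotic gene, fell in both genotypes, by 0.53 on the log2 scale in KO and by 0.26 in WT. The p53 effector Bbc3, which encodes PUMA, was at 1.24 ± 0.230 FPKM in KO TAC and 1.20 ± 0.264 FPKM in KO sham, a change of 0.02 ± 0.11 that was not called.

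Among targets that act in cell-cycle arrest, 6 were tested. In KO, Plk2 (0.90 ± 0.28), Btg2 (1.11 ± 0.41) and Plk3 rose, while Gadd45a (-0.60 ± 0.15) and Fbxw7 (-0.27 ± 0.10) fell. Plk2 was at 15.1 FPKM in KO TAC, 7.30 FPKM in KO sham, 11.0 FPKM in WT TAC and 11.2 FPKM in WT sham. Plk3 was at 3.13 FPKM in KO TAC, 1.68 FPKM in KO sham, 3.53 FPKM in WT TAC and 3.51 FPKM in WT sham. KO sham was thus the lowest group for both, and KO TAC did not exceed the WT means for Plk3. In WT only Fbxw7, the substrate receptor of a ubiquitin ligase, was called, and it fell by 0.38. Btg2, an antiproliferative gene that is also induced early by stimuli, was at 37.2 ± 20.4 FPKM in KO TAC, 15.4 ± 3.21 FPKM in KO sham, 38.9 ± 5.75 FPKM in WT TAC and 41.6 ± 21.8 FPKM in WT sham. WT sham libraries of Btg2 ranged from 14.5 to 65.5 FPKM, and the summed FPKM of 15 immediate early genes ranged there from 248.2 to 787.8, against 233.8 to 286.0 in KO sham. The part of this variation in the difference between genotypes was not tested.

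Among targets in repair and metabolism, 18 were tested, of which 4 rose and 1 fell in KO while 2 rose and 2 fell in WT. Trp53i11 had the largest change of the 35 in KO, at 25.7 ± 11.0 FPKM in KO TAC and 7.86 ± 0.898 FPKM in KO sham (1.49 ± 0.25, limma adjusted p = 0.00025), and was at 16.4 ± 2.05 FPKM in WT TAC and 8.81 ± 0.463 FPKM in WT sham (0.82 ± 0.23, limma adjusted p = 0.0192). Ddit4, an inhibitor of mTORC1, rose in KO (1.02 ± 0.28), as did Sulf2, which encodes a sulfatase of heparan sulfate (0.68 ± 0.13). Between genotypes after TAC 1 of the 35 was called, where 11.3% of all tested genes were. This was the lipase gene Abhd4, at 24.5 ± 1.38 FPKM in KO TAC and 20.2 ± 1.31 FPKM in WT TAC (0.27 ± 0.06, limma adjusted p = 0.00831). Without KO TAC replicate 2 the count of called targets was 5, and without KO TAC replicate 5, KO sham replicate 4 or both libraries that stand apart it was 3. In sham and for the difference between responses 0 of the 35 were called, where 1.26% and 0.93% of all tested genes were.

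**Figure D3:**
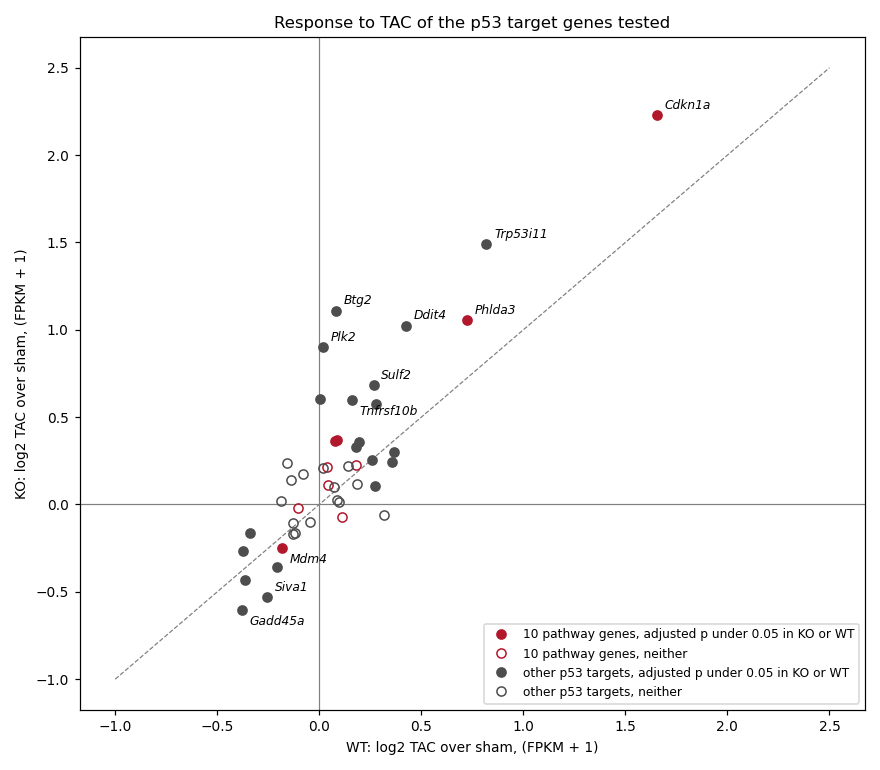
Log2 change after TAC in KO (y axis) against that in WT (x axis), both as differences of log2(FPKM + 1), for the 10 genes and the 35 other p53 targets tested. Filled points were called in KO or WT and the dashed line marks equal changes. Cdkn1a (2.23 in KO, 1.65 in WT), Trp53i11 and Phlda3 lie farthest to the upper right, and most other genes lie near the origin.

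Of the genes acting upstream of p53, 14 of 16 were tested. In KO after TAC 3 rose and 0 fell: Trp53bp1, a DNA damage adaptor (0.28 ± 0.06, limma adjusted p = 0.00096), the kinase gene Hipk2 (0.21 ± 0.06) and the checkpoint kinase gene Atr (0.19 ± 0.07). Trp53bp1 was at 4.16 FPKM in KO TAC, 3.26 FPKM in KO sham, 4.22 FPKM in WT TAC and 4.03 FPKM in WT sham. KO sham was thus its lowest group, and KO TAC lay near the WT groups. In WT Banp rose (0.65 ± 0.17) and the acetyltransferase gene Kat5 fell (-0.25 ± 0.07). Of all tested genes 21.1% rose and 17.7% fell after TAC in KO, and 10.7% and 11.2% in WT. The counts are thus not read as particular to the upstream genes. Cdkn2a, which encodes ARF and the inhibitor p16, was under the filter, with no library above 0.372 FPKM.

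The CDK inhibitors other than p21 did not rise with Cdkn1a as a set. Of 4 tested, Cdkn1c, the p57 gene, fell in KO after TAC, at 8.84 ± 1.80 FPKM against 14.7 ± 3.29 FPKM in KO sham (-0.68 ± 0.13, limma adjusted p = 0.00068). Cdkn1b, the p27 gene, fell as well (-0.27 ± 0.09, limma adjusted p = 0.0258), and the INK4 inhibitor gene Cdkn2d rose (0.30 ± 0.10, limma adjusted p = 0.0192). In WT 0 of the 4 were called, with Cdkn1b at -0.16 ± 0.08 and Cdkn1c at -0.04 ± 0.12. Cdkn1c was at 10.7 FPKM in WT TAC and 11.0 FPKM in WT sham, so KO sham was its highest group and KO TAC its lowest. Cdkn1b was also highest in KO sham, at 16.2 FPKM. It was at 13.2 FPKM in KO TAC, 12.3 FPKM in WT TAC and 13.9 FPKM in WT sham. Of all tested genes 38.8% were called after TAC in KO and 21.9% in WT.

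p21 binds complexes of cyclins and their kinases. Of 10 tested genes of these complexes 5 rose in KO after TAC, 2 rose in WT and 4 were higher in KO TAC than in WT TAC, with 0 lower in each. Of all tested genes 21.1%, 10.7% and 6.53% were higher in these comparisons, and 17.7%, 11.2% and 4.78% lower. Those of the 10 called after TAC were all cyclins, and of the kinases Cdk6 was called in KO TAC against WT TAC (0.26 ± 0.08, limma adjusted p = 0.0368). Ccnd2, cyclin D2, was at 39.2 ± 4.54 FPKM in KO TAC, 18.9 ± 2.23 FPKM in KO sham, 26.4 ± 4.83 FPKM in WT TAC and 20.5 ± 2.10 FPKM in WT sham, and was called in all of those comparisons (1.02 ± 0.13, 0.34 ± 0.12 and 0.56 ± 0.11). Ccna2 and Ccnb2, low cyclins of the S and G2 phases that KO TAC libraries alone could have carried past the filter, rose in KO (1.19 ± 0.27 and 1.02 ± 0.21) and were higher in KO TAC than in WT TAC (0.93 ± 0.23 and 0.88 ± 0.18). Ccna2 and Ccne1, which also rose in KO, met the filter only through TAC libraries. Their highest fitted sham values were 0.779 and 0.953 FPKM. Ccnb1, cyclin B1, was under the filter. It was at 2.14, 0.396, 3.45, 0.803 and 0.914 FPKM in KO TAC, against 0.182, 0.248 and 0.124 FPKM in KO sham. In WT TAC it was at 0.391, 0.0943, 0.163, 0.220 and 0.357 FPKM, against 0, 0.124, 0.109 and 0.200 FPKM in WT sham. Each KO TAC library exceeded every WT TAC and every KO sham library, and the WT groups overlapped. The exact permutation test, 2-sided, gave p = 0.00794 for KO TAC against WT TAC and p = 0.0357 for KO TAC against KO sham, each the smallest p possible, and p = 0.127 for WT TAC against WT sham. In KO TAC replicate 3 was highest and replicate 2 lowest for both Cdkn1a and Ccnb1, whereas in WT TAC replicate 2, the highest for Cdkn1a, was the lowest for Ccnb1. Bulk RNA does not say whether the same cells hold both transcripts.

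Markers of some cell types moved with the same groups. Of 9 fibroblast markers 7 rose in KO after TAC, 4 rose and 1 fell in WT, and 4 were higher in KO TAC than in WT TAC. Their summed FPKM was 599.4 to 928.1 in KO TAC, 339.1 to 397.5 in KO sham, 410.0 to 732.4 in WT TAC and 340.6 to 444.5 in WT sham. Of 7 macrophage markers 4 rose in KO and 1 in WT, with sums of 118.3 to 158.4 FPKM in KO TAC, 87.9 to 91.7 FPKM in KO sham, 97.7 to 136.2 FPKM in WT TAC and 80.0 to 127.6 FPKM in WT sham. Of 9 cardiomyocyte markers 6 fell and 1 rose in KO, with sums of 30394 to 33215 FPKM in KO TAC and 38175 to 41041 FPKM in KO sham, and 5 fell and 2 rose in WT, with sums of 33509 to 36688 FPKM in WT TAC and 37494 to 38746 FPKM in WT sham. In KO TAC against WT TAC 3 of the 9 (Myh6, Pln and Tnni3) were lower and 0 higher, and Tnni3 was called for the difference between the TAC responses. Of all tested genes 21.1% rose and 17.7% fell after TAC in KO, and 10.7% and 11.2% in WT. In KO TAC against WT TAC 6.53% were higher and 4.78% lower. Endothelial markers were called after TAC for 1 of 7 in KO and 0 of 7 in WT, and smooth muscle and pericyte (6), erythroid (4) and neutrophil (3) markers for 0 in either genotype. In these bulk samples more cells of a type and more RNA per cell cannot be told apart, and the part of cell composition in the changes of Cdkn1a, Phlda3, Perp, Zmat3 and Mdm4 was not tested. WT TAC replicate 5 and KO TAC replicate 2, nearest to sham by the sum of wall stress genes, were the lowest of their groups for Phlda3 and Perp. For Cdkn1a KO TAC replicate 2 was the lowest, but WT TAC replicate 5 ranked 4 from the lowest (28.5 FPKM), and for Zmat3 both ranked 2. Without both libraries the difference of Phlda3 between genotypes after TAC was 0.51 (limma adjusted p = 0.00804).

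The genes whose profile over the 17 libraries was most like each of 3 genes were listed, by the root mean square difference of log2(FPKM + 1) after centring each gene on its mean. For Cdkn1a these were Mt2 (0.427), Fstl3 (0.444), Tnfrsf12a (0.445), Maff (0.451) and Adamtsl2 (0.464), against a median of 1.15 over all tested genes and a root mean square of 1.14 of Cdkn1a about its own mean. For Phlda3 they were Ssc5d (0.125), Col5a1 (0.152), Rpl3 (0.156), Pcolce (0.158) and Rhoc (0.161), against a median of 0.534 and its own 0.518. For Trp53 they were Ptma (0.0884), Igsf8 (0.0939), Lix1l (0.0948), Rbms1 (0.0969) and Pip5k1c (0.0987), against a median of 0.222 and its own 0.162. The likeness was thus close for Phlda3 relative to its own variation and loose for Trp53, which varied little in the first place. None of the 10 genes stands in another's list of 5.

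**Figure D4:**
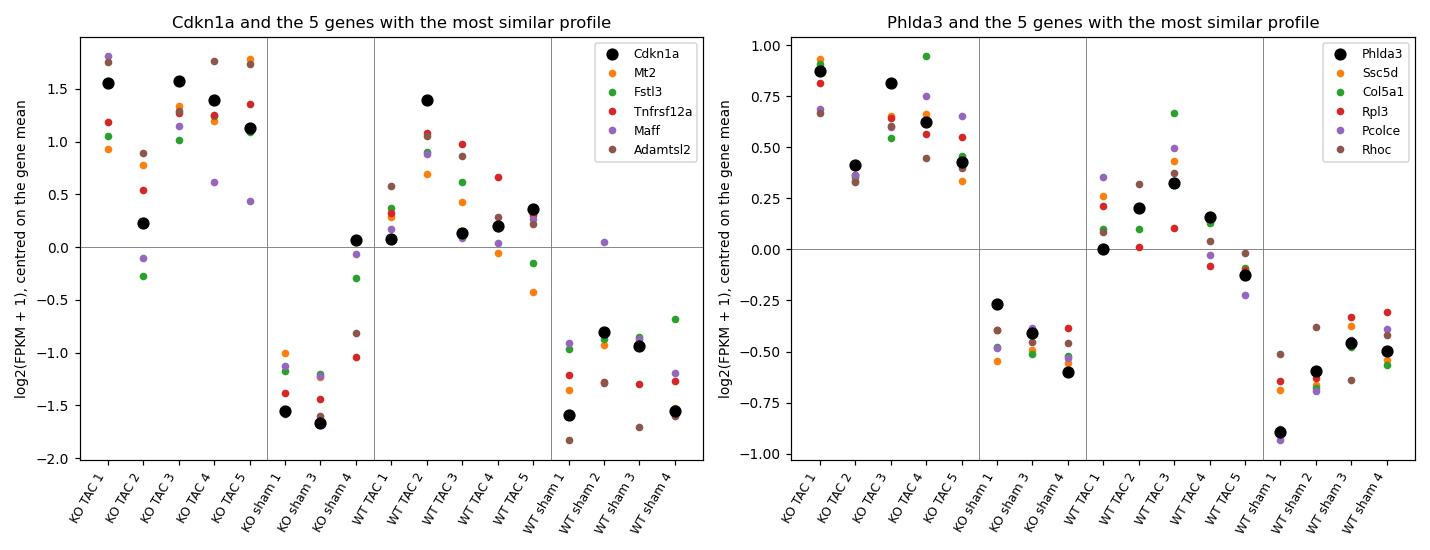
Centred log2(FPKM + 1) (y axis) in the 17 libraries (x axis, KO TAC, KO sham, WT TAC and WT sham from left to right) for Cdkn1a and for Phlda3 (large black points), each with the 5 genes of most similar profile (small coloured points). The points lie closer together for Phlda3 (0.125 to 0.161) than for Cdkn1a (0.427 to 0.464), and in WT TAC replicate 2 Cdkn1a lies above all 5 of its neighbours.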

How the data were processed

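RNA of 18 mouse heart libraries was measured, in 4 groups given by genotype and operation in the labels. Per the labels' protocols, total RNA was taken with an RNeasy kit and libraries were made with a SMARTER mRNA-seq kit, and the submitters' processing notes name mm10. The aligner, the counter and the strand setting: not given in the sources used here. The authors deposited one table of 34714 genes whose unit is not named; the deposited values were taken as FPKM from their form, so sequencing depth is unknown and no counting interval is given. Library sums were 390453 to 432264 FPKM, and 11027 to 11377 genes reached 1 FPKM.

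The 11937 genes that reached 1 FPKM in 3 libraries or more were fitted as log2(FPKM + 1) with limma 3.58.1 in R 4.3.3 (trend, robust), with a mean per group over 17 libraries, 5 contrasts and Benjamini-Hochberg adjustment over all tested genes at 0.05. This was the form planned for a normalized unit. Kcp and Ccnb1 were tested by exact permutation (SciPy 1.17.1, 2-sided) on the same scale. No set test was run. The fit was tested on simulated data.

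Named genes were the 10, Kcp, Ccnb1, up to 4 per pathway list and TAC contrast by smallest adjusted p past the threshold (or the 2 smallest where none passed), and the 5 most similar profiles of 3 genes, other names being given for roles discussed. The 10 genes and the 25 lists (14 of pathways, 11 of cell types) were chosen with earlier results of these data known. Alternatives were all 18 libraries, a replicate block, a pseudocount of 0.1, median-ratio scaling, no filter, a log2 change of at least 1, only the groups compared, a library set term, the fit without WT TAC replicate 5 and KO TAC replicate 2, and each library left out. Their use on the other p53 targets was added after seeing the data. Coordinates and windows are RefSeq's for GRCm38, which mm10 denotes, and exon overlaps are from GENCODE M21.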

Additional observations from a re-analysis of the deposited data

Results flagged for a closer look

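Within the groups of 4 or 5 libraries, a library was singled out where its gap to the nearest other library was a large share of the whole range of the group (Dixon's 95% limit). Of 40 groups of libraries, 10 genes in 4 groups, 3 held such a library, and chance gives about 1 in 20. Cdkn1a in WT TAC replicate 2 was at 59.7 FPKM, against 23.3 to 28.5 FPKM in the other 4 libraries of the group. Without that library the log2 change of Cdkn1a after TAC in WT was still called. Sesn1 in WT TAC replicate 3 was at 43.5 FPKM, against 53.2 to 56.1 FPKM in the others. Sesn2 in WT sham replicate 1 was at 0.908 FPKM, against 1.25 to 1.28 FPKM in the others. No difference between the TAC responses of the genotypes was called for any of the 10 genes.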

How the results depend on the processing

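Over the alternatives that did not leave out a single library, 426 of 438 results of the 10 genes kept their direction and side of the threshold. The calls of Cdkn1a in both genotypes after TAC held in every alternative. Phlda3 was called after TAC in KO in all of them, and after TAC in WT and between genotypes in all but the log2 change of at least 1, which leaves 1 of the 10 genes in WT, 2 in KO and 0 between genotypes after TAC. That setting leaves 0, 3 and 0 other p53 targets and 115, 428 and 62 of all tested genes, with 24 in sham and 14 for the interaction. With all 18 libraries Trp53 in KO was called (0.27), as were 227 genes in sham and 300 for the interaction, 2 other targets between genotypes after TAC, and Kcp differed by -0.29 in sham (exact permutation p = 0.0286). Replicate numbers did not pair the libraries: correlations of same-numbered libraries ran from -0.238 to 0.157 (22 pairs). With the replicate block Trp53 in KO was called (0.27, limma adjusted p = 0.0312), 345 genes and 1 other target were called for the interaction, and no other call among the 10 genes changed. The interaction held 16 genes with no filter on low values, 199 with median-ratio scaling, 17 with the library set term and 460 without WT TAC replicate 5 and KO TAC replicate 2. Between genotypes after TAC, all tested genes called numbered 814 with only the groups compared and 243 with the set term, and other targets numbered 2 with median-ratio scaling, 3 with only the groups compared, 0 with the set term and 3 without the libraries that stand apart. The set term left 12 genes in sham.

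Signs turned only for changes that were not called. Trp53 between genotypes after TAC was -0.0051 with median-ratio scaling and -0.014 without the libraries that stand apart. With the set term Trp53 in sham was 0.072, Perp in sham 0.0045 and Mdm4 after TAC -0.037. Leaving out 1 library, the sham differences ran from -0.39 to 0.47 for Cdkn1a, -0.18 to 0.075 for Trp53, -0.072 to 0.17 for Ccng1, -0.16 to 0.26 for Sesn1 and -0.15 to 0.0091 for Sesn2. After TAC between genotypes they ran from -0.017 to 0.069 for Trp53 and -0.0061 to 0.066 for Mdm4. TAC changes ran from -0.22 to 0.024 (Ccng1, KO), -0.17 to 0.25 (Sesn1, KO) and -0.025 to 0.12 (Sesn2, WT), and interactions from -0.066 to 0.35 (Sesn1) and -0.061 to 0.20 (Trp53). All tested genes called ran from 663 (without KO TAC replicate 1) to 1833 between genotypes after TAC, 50 to 169 in sham and 7 to 597 for the interaction. Other targets called ran from 9 to 17 after TAC in KO, 5 to 11 in WT, 1 to 5 between genotypes after TAC and 0 to 1 in sham. The cause of these shifts was not tested.

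Depth is unknown, so values near or under 1 FPKM (Zmat3, Sesn2, Ccnb1, Kcp) carry an error that the files do not show. The labels do not say which libraries are separate mice, KO sham rests on 3 libraries, and genotype nearly coincides with a set of libraries. The values are not read counts, so the planned count test was not run.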

Other observations

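Of 9 tested genes of the integrated stress response, which slows protein synthesis and raises ATF4, 6 rose and 0 fell after TAC in each genotype. Of all tested genes 21.1% rose and 17.7% fell in KO, and 10.7% rose and 11.2% fell in WT. Gdf15, a secreted stress cytokine that is also a p53 target, was at 10.8 ± 4.26 FPKM in KO TAC, 0.714 ± 0.235 FPKM in KO sham, 2.83 ± 0.893 FPKM in WT TAC and 0.739 ± 0.223 FPKM in WT sham. Gdf15 met the filter on low values only through TAC libraries. Its log2 change was 2.69 ± 0.29 in KO and 1.12 ± 0.26 in WT, and KO TAC exceeded WT TAC by 1.55 ± 0.25 (limma adjusted p = 0.00187). Atf4, the transcription factor at the centre of that response, rose by 0.60 ± 0.08 in KO and 0.51 ± 0.08 in WT, with -0.05 ± 0.07 between genotypes after TAC.

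Of 10 genes of the RB and DREAM repressors, through which p21 acts on cell-cycle genes, 3 rose and 2 fell in KO after TAC, and 1 rose and 1 fell in WT. Rbl2, the p130 gene, fell in both (-0.21 ± 0.06 in KO and -0.18 ± 0.06 in WT), Rbl1, the p107 gene, rose in KO (0.41 ± 0.11), a gene that met the filter on low values only through KO TAC libraries, and E2f4 rose in WT (0.18 ± 0.06). Of 15 immediate early genes 4 rose in KO and 3 in WT, with Myc at 1.71 ± 0.24 in KO and 0.98 ± 0.22 in WT. Of 6 wall stress genes 6 rose in KO and 5 in WT. Beside the counts of these lists, 21.1% of all tested genes rose and 17.7% fell after TAC in KO, and 10.7% and 11.2% in WT. The relatives Sesn3, Ccng2 and Phlda1 were called in no comparison, with Sesn3 at -0.11 ± 0.13 after TAC in KO and 0.19 ± 0.12 in WT.

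Fkbp5, a gene induced by glucocorticoids that was chosen after its values were seen, was high in KO sham replicate 4 and WT TAC replicate 2, which were also the highest of their groups for Cdkn1a. Fkbp5 was at 18.2 FPKM in KO sham replicate 4, against 5.93, 10.7 and 3.04 FPKM in replicates 1, 2 and 3. It was at 14.6 FPKM in WT TAC replicate 2, against 8.83, 8.48, 9.67 and 11.2 FPKM in the other WT TAC libraries. Mt2 was at 91.2 and 143.5 FPKM in those libraries, also the highest of their groups. Because Mt2 was picked as the gene nearest to Cdkn1a in profile over libraries that include these, that likeness was built into its choice. The other groups did not show this order: in KO TAC Fkbp5 was highest in replicate 5 (28.6 FPKM) and Cdkn1a in replicate 3 (67.8 FPKM), and in WT sham Fkbp5 was highest in replicate 3 (7.51 FPKM) and Cdkn1a in replicate 2 (12.2 FPKM). Ddit4, looked at in the same libraries, was highest of KO sham in replicate 4 (47.9 FPKM). In WT TAC, however, Ddit4 was highest in replicate 5 (41.7 FPKM), with 36.5 FPKM in replicate 2.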
